A study of Mus musculus with 24 samples.

Results

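The depleted sites are regions of mouse liver transcripts that held fewer reads after immunoprecipitation with an antibody to N6-methyladenosine (IP) than in the input RNA. They were chosen from the wild-type age table of m6A sites as those with 50 or more reads in each of its 4 group sums and an IP over input ratio of 0.7 or less in 28-week wild-type liver. The rule took 1390 of 37849 sites over that minimum, or 3.67%, and 1012 of the 11504 gene labels with such a site. The table held 51883 sites in all.

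The study sequenced input and IP libraries of liver from 12 C57BL/6 mice, 3 in each of 4 groups: ApoF gene knockout at 28 weeks, wild type at 28 weeks, ApoF gene knockout at 8 weeks and wild type at 8 weeks. Its stated purpose was to describe m6A changes in mice whose lipid metabolism is disturbed by loss of ApoF, an apolipoprotein made by the liver. The sources used here give neither the deleted part of the gene nor the sex of the animals. Each site carries reads summed over the 3 animals of a group, so no spread between animals can be given for a ratio, and the intervals below cover counting error only.

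N6-methyladenosine is a modified base placed on messenger RNA by the Mettl3 and Mettl14 methyltransferase complex, removed by demethylases such as Alkbh5 and bound by YTH-domain readers. It is known to lie mostly near stop codons, in 3′ untranslated regions and in long internal exons. In an m6A pull-down, fragmented RNA is enriched with the antibody and compared with input, and fragments without the mark enter the IP library as background. A ratio below that of most sites therefore says that a stretch was less recovered than others, and a ratio of 1 is no natural zero, because it depends on the depth of both libraries.

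The group sums over all sites ranged between 72868528 and 90420947 reads. The median ratio over the sites above the minimum was 1.11 in 28-week knockout, 1.17 in 28-week wild-type, 1.10 in 8-week knockout and 0.967 in 8-week wild-type liver. A relative ratio, which is the ratio divided by that median, is therefore given beside the ratio itself, and the limit of 0.7 corresponds to a relative ratio of 0.597. The 8-week wild-type libraries held almost no Y-linked RNA, in that Ddx3y, a helicase gene on the Y chromosome, averaged 2338 normalised counts in 8-week knockout and 0.178 in 8-week wild-type livers, as computed from the authors' deposited mean and log2. Y-linked RNA thus differs between the groups in the 8-week genotype comparison and in the wild-type age comparison, and its part in the results below was not tested. By the design it cannot be told apart from genotype in the former or from age in the latter. The muscle actin gene Acta1 averaged 5657 normalised counts in 8-week knockout livers, against under 5 in each other group.

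The targeted gene was lower in both knockout groups but not absent. In the authors' deposited tables, with the sign turned so that a positive value means higher in knockout, Apof RNA differed by -1.01 ± 0.16 on the log2 scale at 28 weeks (SE, DESeq2 adjusted p = 2.5e-06) and by -0.70 ± 0.11 at 8 weeks (adjusted p = 2.3e-08). Apof itself carried 2 depleted sites among its 3 sites. The deepest site of Apof was not depleted, with a ratio of 1.48 in 28-week knockout, 1.58 in 28-week wild-type, 1.46 in 8-week knockout and 1.24 in 8-week wild-type liver. The depleted sites of Apof had ratios of 0.689 and 0.671 in 28-week wild-type and 0.649 and 0.631 in 8-week wild-type liver. The first of them was found in the 28-week knockout table too, at 0.748.

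The values that chose the sites are a description only. The depleted sites had a median ratio of 0.649 in 28-week wild-type liver, with quartiles of 0.609 and 0.678 and a lowest value of 0.235, and most lay just under the limit. Sites just inside it, in 2610528J11Rik and Slc49a4, and the 3 just outside it, in Ywhaz, Gstz1 and Ephx2, all had ratios that round to 0.7. Input reads per depleted site ran between 79 and 1828243, with a median of 892. For 529 of the 1390 sites, or 38.1%, the whole exact 95% counting interval of the ratio lay at or under 0.7.

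The low ratio recurred in groups whose ratio took no part in the choice, though in 8-week wild type the sums had to reach 50 reads. In 8-week wild-type liver, 1225 of the 1390 sites, or 88.1%, had a ratio of 0.7 or less, against 5429 of all 37849 sites, or 14.3%. On the relative scale the count at 8 weeks was 797, or 57.3% (exact 95% binomial interval 54.7% to 60.0%), against 1399, or 3.70%, of all sites. The depleted sites had a median ratio of 0.562 there and a median relative ratio of 0.581. Across all 37849 sites, the log ratios at 28 and 8 weeks in wild type had a Pearson correlation of 0.87, over points that share a gene's sequence and a common set of regions.

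The knockout livers gave the same kind of picture for the sites that could be followed. Of the depleted sites, 538 had a row of equal gene label and equal wild-type sums in the 28-week genotype table and 577 in the 8-week genotype table, while 852 and 813 had no such row. In 28-week knockout liver 357 of 538, or 66.4%, had a ratio of 0.7 or less, against 635 of 18152 followed sites, or 3.50%. On the relative scale the count was 261, or 48.5% (interval 44.2% to 52.8%), against 384, or 2.12%. In 8-week knockout liver 453 of 577, or 78.5%, had a ratio of 0.7 or less, against 813 of 17881 followed sites, or 4.55%. On the relative scale the count was 340, or 58.9% (interval 54.8% to 63.0%), against 477, or 2.67%.

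**Figure D1:**
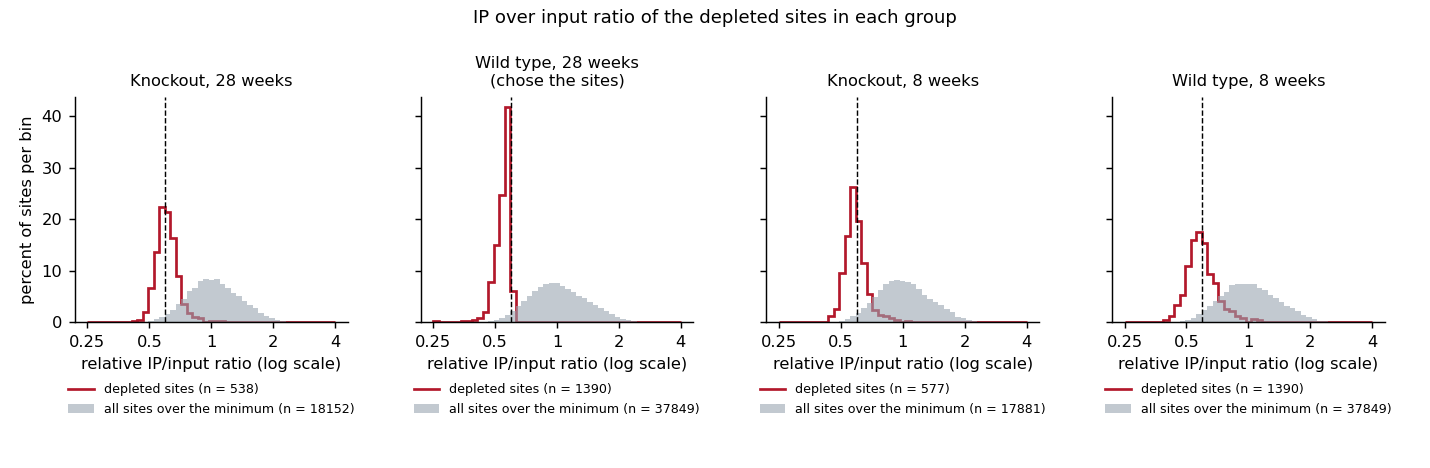
Distribution of the relative IP over input ratio (x axis, log scale, ratio divided by the median of the group's sites) in each of the 4 groups, as percent of sites per bin, for the depleted sites (red line) and for all sites over the minimum (grey). The dashed line marks 0.597, and the depleted sites stand left of the bulk of sites in the 3 groups whose ratio did not choose them, with medians of 0.60, 0.586 and 0.581 in 28-week knockout, 8-week knockout and 8-week wild type.

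A total of 294 depleted sites under 266 gene labels could be followed into both knockout tables. Of these, 106 sites under 97 labels, or 36.1%, were at or under the relative limit in all 3 other groups, against 114 of 11808 sites followed in this way, or 0.965%. A further 63 were low in 2 of the other groups, 60 in 1 and 65 in none. The sites described next were taken from the deepest of these 106 after their values were seen.

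Complement component C3, the central protein of the complement cascade, held 3 of these sites. The second deepest of them had ratios of 0.523 in 28-week knockout, 0.578 in 28-week wild-type, 0.541 in 8-week knockout and 0.481 in 8-week wild-type liver, over 61780 input reads in 28-week wild type. With that depth its interval in 8-week wild type ran between 0.475 and 0.486. C4b, also of the complement cascade, had a site with ratios of 0.562, 0.573, 0.562 and 0.450 in the same order of groups. Scd1, the desaturase that makes monounsaturated fatty acids, had 2 such sites, the deeper one at 0.601 in 28-week knockout, 0.669 in 28-week wild-type, 0.602 in 8-week knockout and 0.518 in 8-week wild-type liver. All of these sites were low in each of the 4 groups, with the 8-week wild-type ratio the lowest of the 4, as was the median of all sites.

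Enzymes of amino acid breakdown gave similar values. Gpt, alanine aminotransferase, had a site at 0.599 in 28-week knockout, 0.631 in 28-week wild-type, 0.589 in 8-week knockout and 0.457 in 8-week wild-type liver. Agxt, which clears glyoxylate, stood at 0.561, 0.587, 0.554 and 0.466 in the same order. Hpd, an enzyme of tyrosine breakdown, stood at 0.562, 0.572, 0.60 and 0.490. Elongation factor Eef2 and the antioxidant selenoprotein gene Gpx1 were also low throughout, Eef2 at 0.595, 0.605, 0.576 and 0.483 and Gpx1 at 0.589, 0.599, 0.573 and 0.511.

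Depleted sites were frequent in genes with abundant RNA. RNA could be matched for 986 of the 1012 labels, and 890 of them, or 90.3% (exact 95% interval 88.2% to 92.0%), lay above the median level of the genes with a site over the minimum. The median level, as mean normalised counts in the wild-type age table, was 3945 for genes with a depleted site and 822 for all genes with a site. Of the 10 equal classes of genes by level, the top one had a depleted site in 36.9% of its genes, against 1.43% in the lowest. These levels are per gene and not per length of transcript. The rule itself leans this way, since a site with few reads cannot hold 50 IP reads at a low ratio: among sites with under 100 input reads in 8-week wild type 0.373% were depleted. Among sites with 1000 or more and under 3000 such reads the share was 6.95%, among those with 10000 or more and under 30000 it was 12%, and above 30000 reads it was 9.96%. Hence the share among deep sites, with 1000 or more 8-week wild-type input reads, is given beside each list below; it was 8.19% over all such sites.

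**Figure D2:**
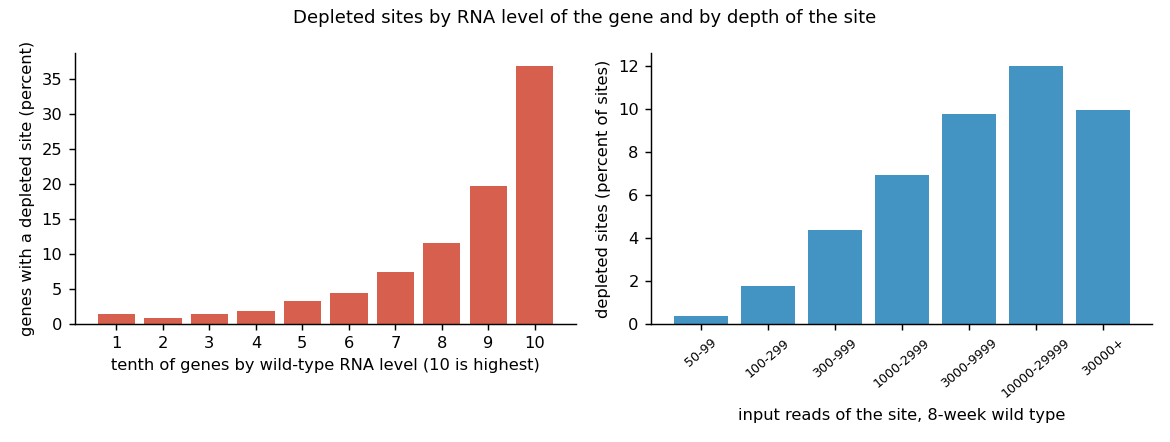
Left, percent of genes that carry a depleted site (y axis) in 10 equal classes of genes ranked on wild-type RNA level; right, percent of sites that are depleted (y axis) by input reads of the site in 8-week wild type. The share of genes is 36.9% in the highest class, and the share of sites runs between 0.373% and 12%.

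All 4 lists of secreted liver proteins other than the major urinary proteins had shares of depleted sites above those of all sites. Serpins, the family of serine protease inhibitors that includes antitrypsin, had 27 depleted among 76 sites (35.5%, and 43.1% of deep sites). Plasma apolipoproteins, the protein parts of lipoproteins, had 12 of 36 (33.3%, deep 27.6%). Acute phase and carrier proteins had 15 of 63 (23.8%, deep 23.6%), and coagulation and complement genes 36 of 173 (20.8%, deep 26.2%). The shares of all sites were 3.67% in all and 8.19% among deep ones. Major urinary proteins, pheromone carriers that the liver secretes for the urine, had only 3 of 37 (8.11%, deep 6.90%).

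Among the apolipoproteins, Apoe, a ligand for remnant uptake, had a depleted site with 150404 IP and 252821 input reads in 28-week wild type. Its ratio was 0.595 in 28-week wild type, 0.542 in 8-week knockout and 0.515 in 8-week wild-type liver. Apoc3, an inhibitor of lipoprotein lipase, had a site at 0.542 in 28-week knockout, 0.543 in 28-week wild type and 0.404 in 8-week wild type. Apoa2, a structural protein of high density lipoprotein, had one at 0.566 in 28-week and 0.561 in 8-week wild type. Apoc4 had both of its sites depleted, at 0.618 and 0.622 in 28-week wild type. Of the other secreted proteins, Ambp, the precursor of a plasma carrier and a protease inhibitor, stood at 0.530 in 28-week and 0.446 in 8-week wild type. The inter-alpha-trypsin inhibitor chain Itih4 stood at 0.584 in 28-week and 0.486 in 8-week wild type.

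Each list of metabolic enzymes also had shares above those of all sites. Amino acid catabolism and urea cycle genes had 43 depleted among 170 sites (25.3%, deep 24.6%), and 57 of the 170 were at or under the relative limit in 8-week wild type (33.5%, against 3.70% of all sites). Cps1, which commits ammonia to the urea cycle, had a site at 0.556 in 28-week and 0.494 in 8-week wild type. Cbs, the first enzyme of transsulfuration, had a site at 0.539 in 28-week and 0.457 in 8-week wild type. Oxidant defence genes had 10 of 43 (23.3%, deep 34.6%), glycolysis and gluconeogenesis genes 14 of 70 (20%, deep 24.6%), nuclear oxidative phosphorylation genes 22 of 129 (17.1%, deep 17.9%) and fatty acid oxidation genes 15 of 88 (17.0%, deep 19.7%). Pcx, pyruvate carboxylase, had 4 of its 7 sites depleted, the lowest at 0.572 in 28-week and 0.469 in 8-week wild type. Atp5b, the beta subunit of ATP synthase, had both sites depleted, at 0.477 and 0.624 in 28-week and 0.512 and 0.515 in 8-week wild type. Cytochrome P450 families 1 to 4 had 23 of 185 (12.4%, deep 14.8%) and conjugating enzymes 13 of 114 (11.4%, deep 16.0%), closer to the shares of all sites.

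Genes of the ribosome, chromatin and proteasome also had shares above those of all sites. Ribosomal protein genes had 28 depleted among 117 sites (23.9%, deep 28.0%), histones 8 of 23 (34.8%, and 4 of 10 deep sites) and proteasome subunits 16 of 117 (13.7%, deep 14.3%). Rplp0, a protein of the ribosomal stalk, had its single site at 0.557 in 28-week wild type, 0.561 in 8-week knockout and 0.453 in 8-week wild type. H3f3b, which encodes a replication-independent histone, had a site at 0.556 in 28-week and 0.439 in 8-week wild type. Psmb4, a subunit of the proteasome core, had one at 0.544 in 28-week knockout, 0.536 in 28-week wild type and 0.488 in 8-week wild type. Several ribosomal sites carry a joint label with a small nucleolar RNA hosted in the gene, such as Rplp2 with Snora52, and reads of host and guest cannot be told apart there.

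Zinc finger genes had a lower share than all sites, and the m6A machinery and unnamed genes shares close to it. Zinc finger genes had 12 of 1007 (1.19%, deep 2.35%), and their median ratio was 1.42 in 28-week and 1.15 in 8-week wild type, against 1.17 and 0.967 for all sites. Translation factors had 15 of 204 (7.35%, deep 11.2%), long noncoding and small RNA hosts 13 of 225 (5.78%, deep 9.71%), immediate early genes 3 of 62 (4.84%, and 2 of 20 deep sites) and unnamed or predicted genes 39 of 1192 (3.27%, deep 6.16%). Genes of the m6A machinery had 3 of 79 (3.80%, and 0 of 16 deep sites), 2 of them in Alkbh5, the demethylase, and 1 in the RNA-binding protein gene Fmr1. The lower Alkbh5 site had 188 IP and 420 input reads in 28-week wild type, a ratio of 0.448, against 0.760 in 8-week wild type.

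Marker lists followed the same division. Hepatocyte markers had 17 depleted among 55 sites (30.9%), Kupffer cell markers 2 of 28 (7.14%) and neutrophil and erythroid markers 1 of 8. Sinusoidal endothelial markers had 0 of 49, stellate cell and fibroblast markers 0 of 28, cholangiocyte markers 0 of 8, and lymphocyte and plasma cell markers 0 of 5. Only 6 of the endothelial sites and 5 of the stellate sites were deep, against 50 of the 55 hepatocyte sites, so the division between these lists cannot be told apart from read depth. In these bulk samples, fewer cells of a type and less RNA per cell cannot be told apart either. In all, 317 depleted sites, or 22.8%, fell in at least 1 of the functional lists. The same share over all sites was not computed, so this one cannot be read as high or low.

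**Figure D3:**
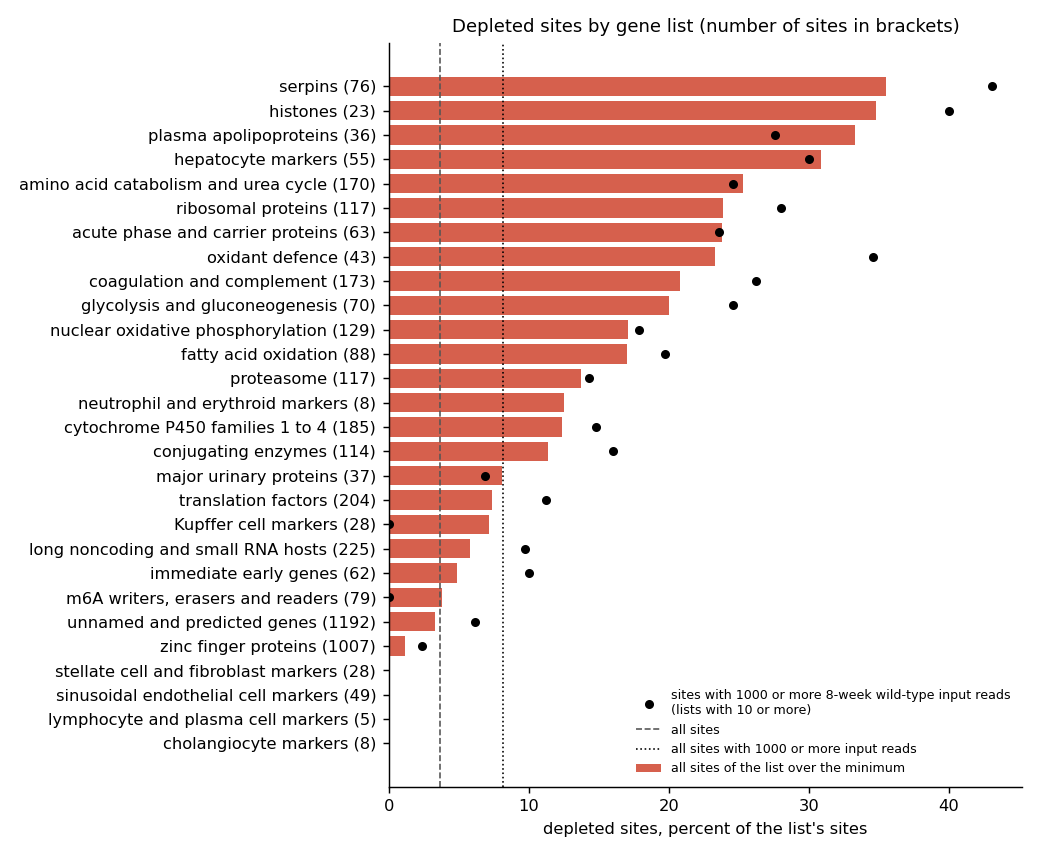
Share of depleted sites among the sites of each gene list over the read minimum (bars, x axis in percent, number of sites in brackets), with the share among sites of 1000 or more 8-week wild-type input reads as dots for lists with 10 or more such sites. The dashed and dotted lines give the shares over all sites, 3.67% and 8.19%, and serpins, histones and apolipoproteins reach 35.5%, 34.8% and 33.3%.

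Most genes with a depleted site also had sites that were not depleted. Of the 1012 labels, 757 had 1 depleted site, 180 had 2 and 75 had 3 or more, while the median number of sites per label was 4 for labels with a depleted site and 3 for all. In 911 labels depleted and other sites stood side by side. For each such label, reads were summed over its depleted sites and over its other sites, so the deepest sites weigh most in these pooled ratios. In 8-week wild type, whose ratio the rule did not use, the pooled ratio of the depleted sites was the lower one in 854 of the 911, or 93.7%. The median difference over labels was -0.54 on the log2 scale (depleted minus other). In 8-week knockout the same held for 335 of 345 labels that could be followed, or 97.1%, with a median difference of -0.51. The medians of the pooled ratios over labels were 0.649 for depleted and 0.931 for other sites in 8-week knockout, and 0.568 and 0.844 in 8-week wild type.

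Lrp1, a very large endocytic receptor for lipoprotein remnants and protease complexes, had the most, 15 of 25 sites. The depleted sites of Lrp1 ran between 0.543 and 0.699 in 28-week and between 0.480 and 0.635 in 8-week wild type, while its 10 other sites reached 1.30 and 1.05. Fn1, plasma fibronectin, had 7 of 11 sites depleted, but its 3 deepest sites stood at 1.05, 1.08 and 1.12 in 28-week wild type. In C3 the 4 deepest sites had ratios of 1.33, 0.889, 1.00 and 1.05 in 28-week wild type, and the 4 shallower ones were depleted. Apob, the core protein of very low density lipoprotein, had 3 of 9 sites depleted, at 0.679 to 0.695 in 28-week wild type, beside sites at 1.46 and 1.68. In Lrp1, C3 and Apob sites above the median of 1.17 and sites under the limit carried the same gene label, while all sites of Fn1 lay under that median.

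Serpina1a, an antitrypsin gene, had 5 of 7 sites depleted, the lowest at 0.429 in 28-week wild type, 0.465 in 8-week knockout and 0.699 in 8-week wild type. Its deepest site, with 2043047 input reads in 28-week wild type, had a ratio of 1.36 there. Reads can be shared between Serpina1a and its near-identical copies Serpina1b to Serpina1e, so the values of these sites are uncertain. Alb, albumin, the most abundant transcript, had its 3 deepest sites depleted, at 0.674, 0.672 and 0.646 in 28-week and 0.575, 0.605 and 0.586 in 8-week wild type. Its shallower sites stood at 0.710 and 0.872 in 28-week wild type, so all 5 of its sites over the minimum lay under the median of 1.17.

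In 101 labels every site over the minimum was depleted, 23 of them with 2 or more sites. Ahsg, the plasma glycoprotein fetuin-A, had 4 of 4, with ratios of 0.698, 0.699, 0.473 and 0.657 in 28-week wild type and 0.567, 0.553, 0.417 and 0.575 in 8-week wild type. Cyp2d26 had 4 of 4, at 0.588 to 0.696 in 28-week and 0.469 to 0.577 in 8-week wild type. Selenbp2, a selenium-binding protein gene, had 4 of 4, at 0.551 to 0.677 in 28-week and 0.409 to 0.661 in 8-week wild type. Rbp4, the plasma carrier of retinol, Gnmt, which uses up methyl groups from S-adenosylmethionine, and Gpt had 2 of 2 each, and translation factor Eif5a and ribosomal protein Rps26 had 3 of 3 each.

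**Figure D4:**
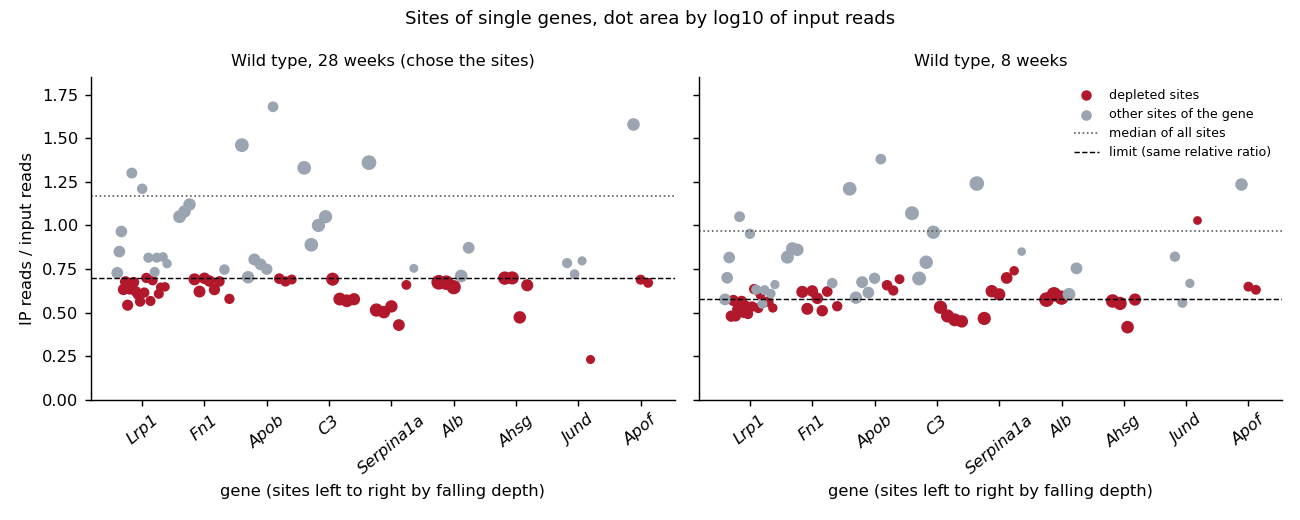
IP over input ratio (y axis) of every site over the read minimum in 9 genes, in 28-week wild type, whose ratio chose the sites (left), and in 8-week wild type (right), with depleted sites in red and other sites in grey. Dots run left to right by falling depth within a gene; the sites of Ahsg were all depleted, whereas Apof, C3, Apob and Serpina1a had deep sites above 1.

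The 10 sites with the lowest ratios were picked as the extreme of the values that chose the sites, so higher ratios in another group follow in part from the pick, and nothing is read from them. The lowest belonged to Jund, a subunit of the AP-1 transcription factor, with 56 IP and 238 input reads in 28-week wild type (0.235, interval 0.173 to 0.316) and 186 IP and 180 input reads in 8-week wild type (1.03). Rap1b, a small GTPase gene, followed with 0.294 in 28-week and 1.34 in 8-week wild type. The other 3 sites of Jund had ratios of 0.721 to 0.797 in 28-week wild type. Of the 10 lowest, only Arhgap21, a GTPase-activating protein gene, was at or under the relative limit in 8-week wild type too, at 0.329 over 5030 input reads in 28-week and 0.392 over 4406 in 8-week wild type. Ubqln1, a proteasome shuttle, stood at 0.310 in 28-week and 0.672 in 8-week wild type.

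In 23 of the 1390 sites the ratio lay above the median of all sites in 8-week wild type. They included genes of the Cyp2d cytochrome and major urinary protein families, several of which are known for higher RNA in male mouse liver. Cyp2d11 had 1275 IP and 2529 input reads in 28-week wild type (0.504), against 739 IP and 136 input reads in 8-week wild type (5.43), and 0.858 in 8-week knockout. Cyp2d9, a steroid hydroxylase gene expressed mainly in male mice, had a site at 0.592 in 28-week wild type over 4147 input reads and at 1.36 in 8-week wild type over 129 input reads. The joint Mup13 and Mup17 site stood at 0.793 in 28-week knockout, 0.599 in 28-week wild type, 0.877 in 8-week knockout and 1.45 in 8-week wild type. The pick itself required a low ratio in 28-week wild type and one above the median in 8-week wild type. Knockout ratios that lie between those of the wild-type groups follow in part from that pick, so nothing is read from their order. Its cause was not tested. These families consist of near-identical copies whose reads may be split among them. The Mup14 site was not among these 23, but its relative ratio too was lower in 28-week than in 8-week wild type, at 0.568 and 0.814. Its ratios there were 0.666 over 236786 and 0.787 over 609 input reads. In knockout it had 0.804 at 28 weeks and 0.847 at 8 weeks.

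Whether the depleted sites differed between knockout and wild type was asked at 8 weeks, where no ratio of the rule takes part, although the 8-week wild-type sums had to reach the minimum of 50 reads. The authors' deposited table gave an adjusted p for 550 of the 577 followed sites. Of these, 55 were called higher in knockout (10%, against 5.52% of all 25727 sites tested) and 54 lower (9.82%, against 5.43%), at an adjusted p under 0.05. Among the 12507 tested sites that were over the minimum and followed in the same way, the shares were 5.92% higher and 5.96% lower. The deposited p rests on counting error alone: the SE it implies was 1.001 times the counting SE of the sums in the median, so a call does not show a difference beyond the spread between animals. Depleted sites hold more reads than most, and that part in the share called was not tested. Centred on the median of all sites, the log2 difference from the sums had a median of 0.02 over the depleted sites and -0.01 over all followed sites.

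The highest called log2 in the authors' deposited table was 0.48 for Selenbp2 (adjusted p = 0.00649), with ratios of 0.651 in 8-week knockout and 0.409 in 8-week wild type. Its reads in 8-week wild type were few, 176 IP and 430 input. Hgfac, the protease that activates hepatocyte growth factor, had 0.649 in 8-week knockout and 0.449 in 8-week wild type, a log2 of 0.36 in the authors' deposited table (adjusted p = 2.1e-10). Oaf stood at 0.624 and 0.426 in 8-week knockout and wild type, with a log2 of 0.34 in the authors' deposited table (adjusted p = 2.4e-04). Etnk2, an ethanolamine kinase of phospholipid synthesis, stood at 0.665 and 0.473, with 0.32 in the authors' deposited table (adjusted p = 2.2e-06). The last of the 5 highest, in the glucuronosyltransferase gene Ugt2a3, stood at 0.741 in 8-week knockout and 0.559 in 8-week wild type. All 5 ratios in knockout lay under 1.10, the median of all sites in that group.

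On the lower side the deposited log2 and the sums often differed, by an offset per site. That offset ran between -1.49 and 0.14 over the followed depleted sites, and 13 of the 54 sites called lower had the opposite sign from the sums. The authors' deposited table gave Atg3, a conjugating enzyme of autophagy, the lowest called log2, -1.42 (adjusted p = 1.1e-12), whereas the sums gave -0.53, from ratios of 0.612 in 8-week knockout and 0.772 in 8-week wild type. Mark3, a kinase of microtubule affinity, had -1.29 in the authors' deposited table (adjusted p = 5.1e-07) and -0.64 from the sums, and Slc25a11, the mitochondrial oxoglutarate carrier, -1.26 (adjusted p = 0.00151) and -0.63. For Slc49a4 and for the adiponectin receptor gene Adipor2 the authors' deposited table gave -1.24 (adjusted p = 3.1e-05) and -1.07 (adjusted p = 0.0104), but the sums gave 0.25 and 0.32. Counting only calls with the same sign in both left 54 higher and 41 lower, and a test on the sums gave 43 higher and 32 lower. The shares of all sites called in these ways were not computed.

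**Figure D5:**
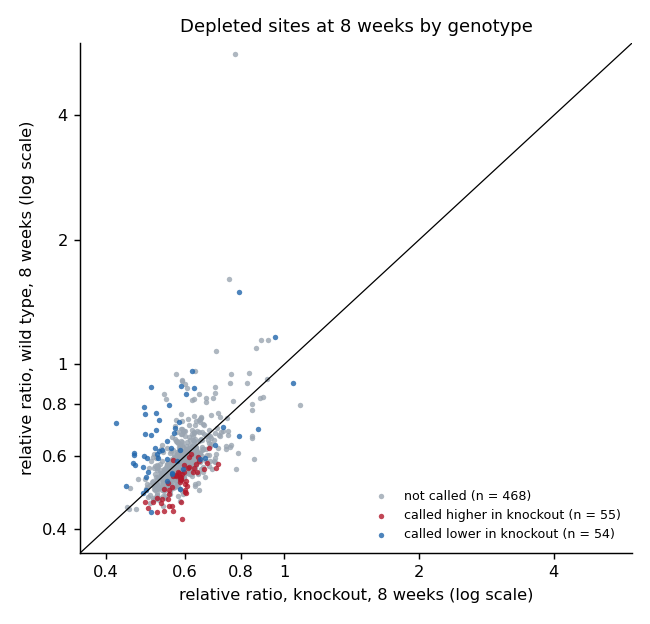
Relative IP over input ratio of the 577 followed depleted sites in 8-week knockout (x axis, log scale) and 8-week wild type (y axis, log scale), coloured by the authors' call. Points lie along the line of equality, with 55 called higher and 54 called lower in knockout, and some of the sites called lower lie on or below the line, where the sums put knockout higher.

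The remaining contrasts use the 28-week wild-type sums that chose the sites, so nothing is read from their counts. Between knockout and wild type at 28 weeks, 58 of 495 tested depleted sites were called higher (11.7%, against 2.57% of all sites tested) and 21 lower (4.24%, against 6.62%). With a test on the sums these became 80 higher and 9 lower. Between 28 and 8 weeks in wild type, 73 of 1239 were called higher (5.89%, against 9.06%) and 127 lower (10.3%, against 2.20%). With a test on the sums these became 20 higher and 130 lower. For both contrasts, the share of all sites called by the test on the sums was not computed.

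RNA of the genes that carry depleted sites was compared at 8 weeks from input libraries alone. In the authors' deposited table, 28 of 981 tested genes were higher in knockout (2.85%, against 2.48% of all genes tested) and 54 lower (5.50%, against 2.50%) at a DESeq2 adjusted p under 0.05. Among genes with a mean of 1000 or more normalised counts and a site over the minimum, 3.02% of the genes with a depleted site were higher, against 2.77% of all such genes, and 5.81% were lower, against 3.57%. The median log2 was -0.05 over the genes with depleted sites and 0.01 over all.

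In the authors' deposited table, the membrane attack complex genes C8a and C8b were higher in 8-week knockout by 1.90 ± 0.26 (SE, DESeq2 adjusted p = 2.3e-10) and 1.72 ± 0.27 (adjusted p = 1.1e-07) on the log2 scale. The authors' deposited table gave Cyp2d9 3.67 ± 0.82 (DESeq2 adjusted p = 5.7e-04), the glutathione transferase gene Gstp1 1.94 ± 0.44 (adjusted p = 9.1e-04) and Serpina1e 1.81 ± 0.48 (adjusted p = 0.00689). Cyp2d9 and Gstp1 are known for higher RNA in male than in female mouse liver, and 8-week wild type was the group with almost no Y-linked RNA. For every gene named in this paragraph, genotype and that difference cannot be told apart. Genes of antigen presentation by class II molecules were lower in the authors' deposited table, H2-Ab1 at -1.86 ± 0.36 (DESeq2 adjusted p = 3.2e-05), H2-Eb1 at -1.85 ± 0.42 (adjusted p = 7.5e-04) and Cd74 at -1.66 ± 0.39 (adjusted p = 0.00124). Cyp2c69, a cytochrome P450 gene, was lower as well in the authors' deposited table, at -1.61 ± 0.35 (DESeq2 adjusted p = 3.2e-04). Txnip, an inhibitor of thioredoxin, was lower at -1.69 ± 0.31 in the authors' deposited table (DESeq2 adjusted p = 9.8e-06). These genes were chosen among the largest calls after their values were seen.

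At 28 weeks 1 gene with a depleted site was higher and 2 were lower in knockout among 980 tested (0.102% and 0.204%, against 0.0834% and 0.174% of all genes). They were Lhpp at 0.67 ± 0.15 (SE, DESeq2 adjusted p = 0.00551 in the authors' deposited table), Cdh1, which encodes E-cadherin, at -1.51 ± 0.34 (adjusted p = 0.00800) and Apof, given above. Between 28 and 8 weeks, 51 genes were higher in wild type and 48 in knockout, against 13 and 6 lower. The shares higher, 5.20% and 4.90%, stood beside 2.37% and 2.03% of all genes tested, and the shares lower, 1.33% and 0.613%, beside 1.86% and 2.46%. Among genes with a mean of 1000 or more and a site over the minimum, the gaps were smaller except for the share lower in wild type, where the gap was larger. There the shares higher were 5.45% in wild type and 5.24% in knockout, against 3.11% and 2.81% of all such genes. The shares lower were 1.39% and 0.698%, against 2.40% and 1.36%. These contrasts share groups with the others. In the authors' deposited table, Elovl2, an elongase of polyunsaturated fatty acids, differed by -2.93 ± 0.18 between 28 and 8 weeks in knockout (SE, DESeq2 adjusted p = 9.9e-57). The authors' deposited table gave Selenbp2, with all 4 sites depleted, a difference of 4.40 ± 1.10 for wild type at 28 against 8 weeks (DESeq2 adjusted p = 0.00395), a contrast in which Y-linked RNA differs too.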

How the data were processed

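Liver input and m6A IP libraries of 12 mice came from a stranded kit with molecular identifiers, per the labels' protocols. The submitters' processing notes name HISAT2, StringTie and DESeq without versions; site caller, genome build and site positions were not stated, and no sequence is printed. Site values are read counts that the authors added up per group of 3 libraries, not normalised. The RNA tables hold the authors' deposited signal (mean counts scaled by size factors), log2 with SE, Wald score and p-value, and the site tables the authors' log2 and p-value.

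Ratios, exact intervals, a Wald test on sums with 0.5 added, and links by equal gene label and sums were computed in Python 3.11.15 with pandas 2.3.3 and scipy 1.17.1. Equal sums at 21900 and 22361 sites tied columns to groups. The deposited RNA log2 ran against the input ratios (Pearson -0.71, -0.56 and -0.72 across genes), so its sign was turned. The knockout age site table, with 98.9% of symbols in capitals, was not used. No file holds values per library, so the authors' p replaced the planned edgeR fit. Named sites are the 10 lowest, the 10 deepest, the 5 highest and 5 lowest 8-week calls, 2 per list, 3 on each side of the limit and Apof, of which some are not reported here; sites low in every group, sites within single genes and RNA calls were named after their values were seen. Sites and lists were chosen with earlier results of these data known. Alternatives varied minimum, limit, threshold, scaling and test.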

Additional observations from a re-analysis of the deposited data

How the results depend on the processing

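Of 107 alternative values, 59 stayed within the counting interval or within 1.5 times of the reported one. The share of depleted sites at a ratio of 0.7 or less moved with scaling and with the limit. Dividing by the ratio of total reads gave 59.9% in 8-week wild type, 49.4% in 28-week knockout and 47.8% in 8-week knockout, and dividing by the median ratio gave 57.3%, 48.5% and 58.9%. A minimum of 100 or 20 reads gave 92.3% and 86.3% in 8-week wild type. A limit of 0.9 on the ratio took 7350 sites and gave 92.6%, 80.4% and 85.5% in these groups. In this wider set 359 sites were called between genotypes at 8 weeks, 199 at 28 weeks and 474 between ages. The counts over the 1390 sites were 109, 79 and 200. The limit of 0.9 also gave 237 genes called in RNA at 8 weeks, against 82, and 76.6% of genes above the median level. A limit of 0.5 took 24 sites, too few to read, and gave 12.5%, 0% and 33.3%, 2, 1 and 15 called sites, 0 of 24 genes called in RNA by DESeq2 (3 at an unadjusted p under 0.05, no other tool being run) and 100% above the median level. With 1 site per gene, or 1012 sites, 133 were called between ages. With an adjusted p under 0.01 there were 133 as well, and 47 genes were called in RNA between genotypes at 8 weeks, 39 between ages in wild type and 18 in knockout, against 82, 64 and 54. Shares of all sites or genes called were not computed at these settings, and the sets differ in size, so these counts cannot be compared as shares. The cause of these moves was not tested. No paired analysis was possible because the files hold group sums and no values per library, and leaving out a replicate could not be run for the same reason. Depth limits single ratios, as the whole counting interval lay at or under the limit for 529 of 1390 sites.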
